A study of Mus musculus with 6 samples.

Results

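Ccbe1, the VEGF genes Vegfa, Vegfb and Vegfc, the VEGF receptor gene Flt4 and the lymphatic marker genes Lyve1, Pdpn and Prox1 were examined in mouse pancreatic islets. These 8 genes were read by 18 of the 45037 non-control probe sets of an Affymetrix expression array, each carrying the symbol of exactly 1 of these genes in the platform annotation. The genes were 8 of 18193 with a probe set of a single symbol. Tead1KO samples were islets of C57Bl6 male mice aged 12 weeks with a knockout of Tead1 specific to beta cells. Flox samples were islets of C57Bl6 flox males of the same age and served as controls. Each group had 3 samples with 1 array each. The labels name neither the Cre transgene nor its driver, and they do not say whether a sample came from 1 mouse or a pool. Where samples of a group were not separate mice, the spread between them may be technical.

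Ccbe1 encodes a secreted matrix protein that works with the protease Adamts3 to cut the VEGF-C precursor (Vegfc) into its active form. Active VEGF-C binds VEGFR-3, the product of Flt4, on lymphatic endothelial cells and drives the outgrowth of lymphatic vessels. VEGF-A (Vegfa) is made in large amounts by beta cells and maintains the dense capillaries of the islet through the receptor gene Kdr, while lymphatic vessels lie mostly outside islets, in the tissue around them. The comparison asks whether genes that mark lymphatic vessels, or carry the VEGF-C signal, move with Ccbe1 when beta cells lack Tead1, a DNA-binding factor of the Hippo pathway.

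Values are log2 probe set signals, so a difference of 1 is a 2-fold change, and differences are Tead1KO minus Flox. Bacterial control probe sets that were not spiked in read between 2.87 and 4.70, and a probe set is called not above background in a group when no array of that group exceeded the highest such control of the same array. All probe sets were fitted together with limma, and 81 of 45037, or 0.18%, passed at a Benjamini-Hochberg adjusted p under 0.05, 59 of them higher and 22 lower in Tead1KO. Endocrine genes that define the tissue were bright in both groups, with a mean of 15.69 in Tead1KO and 15.69 in Flox for Ins2 and 14.74 in Tead1KO and 14.74 in Flox for Gcg. Tead1KO replicate 3 stood apart, with a hybridization control signal of 13.23 against 10.60 to 12.09 in the other arrays and a mean correlation of 0.969 with the other arrays against 0.984 to 0.986. Its values also had the narrowest interquartile range, 2.65 against 2.99 to 3.32, and the highest median, 5.37. The main fit did not correct for this. The brighter Tead1 probe set read 6.72, 7.49 and 5.95 in Tead1KO replicates 1 to 3 and 7.22, 6.99 and 7.40 in Flox replicates 1 to 3. Its groups overlapped and it did not pass (difference -0.49, SE 0.36, adjusted p = 0.871). The sources do not place either Tead1 probe set inside or outside the deleted part, so the labels are not checked by these values.

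Ccbe1 had the largest difference among the 18 probe sets. Its brightest probe set (1437385_at) read 8.05, 8.47 and 8.33 in Tead1KO replicates 1 to 3 and 5.22, 5.10 and 5.20 in Flox replicates 1 to 3. The lowest Tead1KO array thus lay far above the highest Flox array, and all 6 arrays were above background. The means were 8.28 ± 0.22 in Tead1KO and 5.17 ± 0.06 in Flox (SD, n = 3 each), a difference of 3.11 or 8.62-fold. This ranked 7 among all probe sets by difference. Ccbe1 was selected on this rise, and the other genes were named beside it, so the difference is a description and no test is given for it. It lay between 3.01 and 3.23 when each array was left out in turn.

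The other 3 Ccbe1 probe sets were much dimmer and moved little. The second (1445127_at) read 4.94, 4.73 and 5.19 in Tead1KO arrays and 4.55, 4.42 and 4.68 in Flox arrays, a difference of 0.40. Its groups did not overlap, but all values were close to background. The dimmest pair was not above background on any array, with differences of 0.27 and 0.23. The rise of Ccbe1 therefore rests on 1 of 4 probe sets, and the mean over the 4 differed by 1.003.

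**Figure D1:**
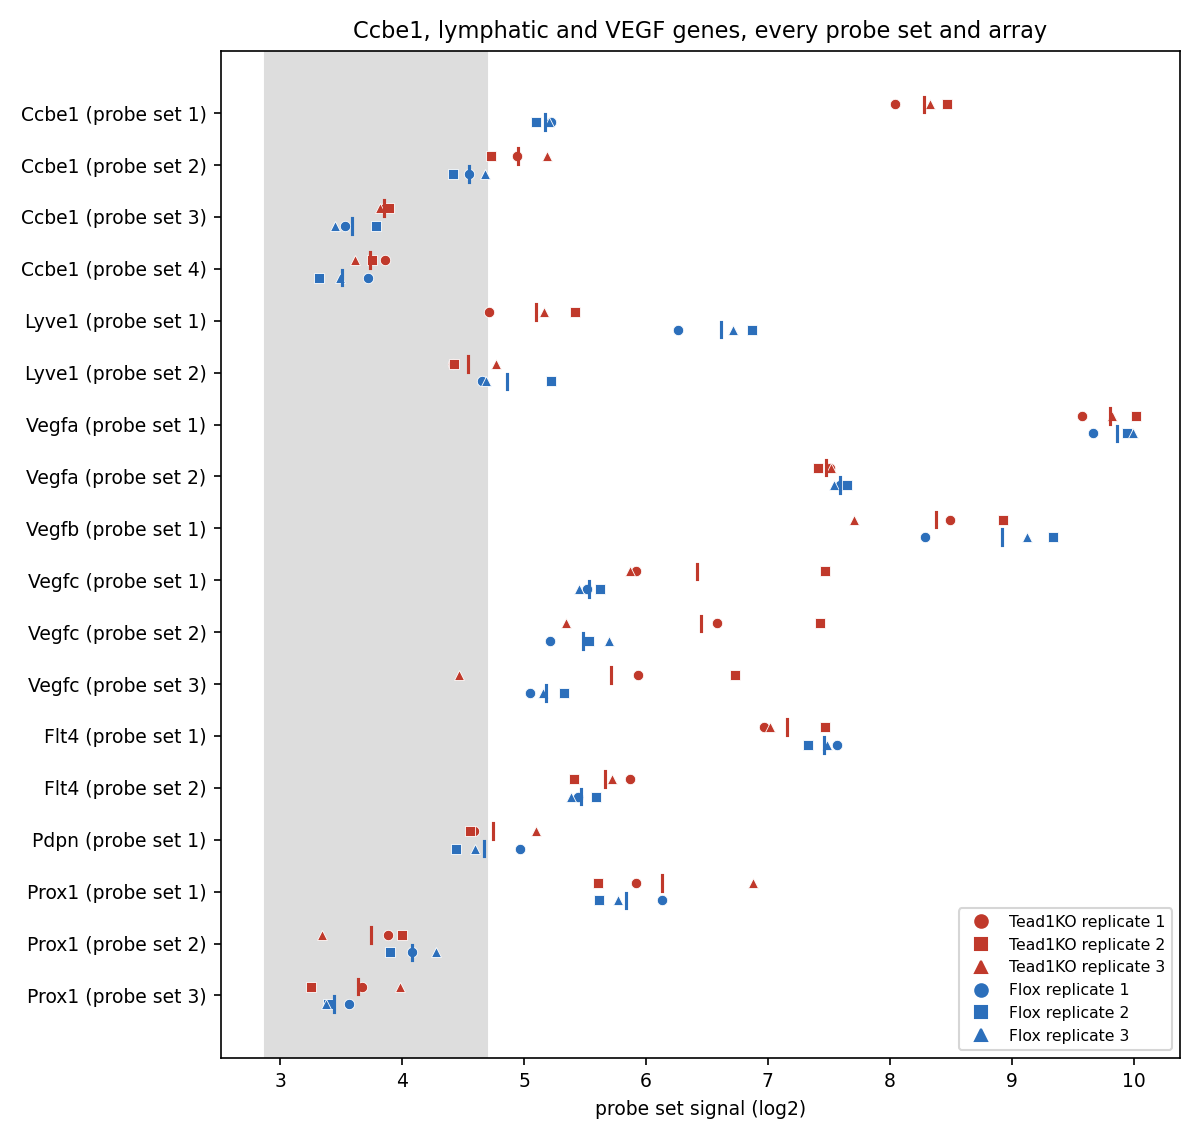
Signal of every probe set of the 8 genes (log2, x axis), from the brightest probe set of a gene (probe set 1) down; symbols are single arrays, red Tead1KO above blue Flox, short vertical lines mark group means, and grey shading spans the unspiked bacterial controls (2.87 to 4.70). The first Ccbe1 probe set is separated by 3.11, the first Lyve1 probe set lies lower in Tead1KO by 1.52, and most of the others overlap.

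Apart from Ccbe1, 0 of 14 probe sets of these genes passed in limma over all probe sets, and 1 had an unadjusted p under 0.05, as 5.18% of all probe sets did. No overlap between groups was seen in 3 of the 14, where 10.5% of all probe sets had none. The genes were named with results of this contrast known, so the adjusted p-values below describe the fit and support nothing further.

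Lyve1, a hyaluronan receptor of lymphatic endothelium that some tissue macrophages also carry, lay lower in Tead1KO, opposite to Ccbe1. Its brighter probe set (1429379_at) read 4.71, 5.42 and 5.16 in Tead1KO replicates 1 to 3 and 6.26, 6.87 and 6.71 in Flox replicates 1 to 3. Every Tead1KO array was below every Flox array, and the lowest Tead1KO array was close to background. The means were 5.10 ± 0.36 in Tead1KO and 6.62 ± 0.32 in Flox (SD, n = 3 each), a signal 2.87-fold lower in Tead1KO (difference -1.52, SE 0.24). It missed the threshold over all probe sets (limma adjusted p = 0.0801), and it passed when 1 probe set per gene was tested over 18193 genes (adjusted p = 0.0468), a setting in which 0.517% of genes did. With both Lyve1 probe sets averaged the difference was -0.92 and did not pass (adjusted p = 0.115). Without single arrays the adjusted p ranged from 0.0369, without Tead1KO replicate 2, to 0.511, without Flox replicate 3, while the difference stayed between -1.70 and -1.33. The dimmer Lyve1 probe set (1453128_at) read 4.42, 4.42 and 4.77 in Tead1KO arrays and 4.66, 5.22 and 4.69 in Flox arrays. These values overlapped near background (difference -0.32, SE 0.20, adjusted p = 0.871). In whole islets, fewer Lyve1-positive cells and less Lyve1 RNA per cell cannot be told apart.

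Pdpn, a membrane glycoprotein of lymphatic endothelium that stromal and mesothelial cells also make, had 1 probe set, close to background. It read 4.59, 4.56 and 5.10 in Tead1KO arrays and 4.97, 4.44 and 4.60 in Flox arrays. The groups overlapped fully (difference 0.08, SE 0.21, limma adjusted p = 0.939), and a fall would be hard to see at this level.

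Prox1, the transcription factor that specifies lymphatic endothelium and that pancreatic endocrine cells also express, was read by 3 probe sets. The brightest (1457432_at) read 5.92, 5.61 and 6.88 in Tead1KO arrays and 6.13, 5.61 and 5.77 in Flox arrays. Tead1KO replicate 3 alone was above the Flox range (difference 0.30, SE 0.32, limma adjusted p = 0.878), and without it the difference was -0.07. The other 2 were not above background on any array and differed by -0.34 and 0.19.

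Flt4, the receptor gene for VEGF-C, had a pair of probe sets that differed in opposite directions. The brighter (1444052_at) read 6.97, 7.47 and 7.02 in Tead1KO arrays and 7.56, 7.33 and 7.49 in Flox arrays, with overlap through Tead1KO replicate 2 (difference -0.31, SE 0.19, limma adjusted p = 0.871). The dimmer (1421442_at) read 5.87, 5.41 and 5.72 in Tead1KO arrays and 5.44, 5.59 and 5.38 in Flox arrays (difference 0.20, SE 0.17, adjusted p = 0.871). Neither passed, and their groups overlapped.

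Vegfc, the ligand whose precursor is cut with the help of Ccbe1, varied widely among the Tead1KO arrays and hardly among the Flox arrays. The brightest of its 3 probe sets (1439766_x_at), of a class that can match several transcripts, read 5.92, 7.47 and 5.87 in Tead1KO replicates 1 to 3 and 5.52, 5.63 and 5.45 in Flox replicates 1 to 3. All Tead1KO arrays were above all Flox arrays there, replicate 2 by far the most. The second (1440739_at) read 6.58, 7.43 and 5.34 in Tead1KO arrays and 5.21, 5.54 and 5.70 in Flox arrays. The dimmest (1419417_at) read 5.94, 6.73 and 4.47 in Tead1KO arrays and 5.05, 5.33 and 5.15 in Flox arrays. All 3 probe sets were highest in Tead1KO replicate 2 and lowest, within that group, in Tead1KO replicate 3, which lay within the Flox range in the second and below it in the dimmest.

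The range within a group was 1.60, 2.09 and 2.26 over the Tead1KO arrays and 0.17, 0.49 and 0.28 over the Flox arrays, from the brightest Vegfc probe set to the dimmest. The differences were 0.89 (SE 0.40), 0.97 (SE 0.46) and 0.53 (SE 0.49), and none passed (limma adjusted p = 0.871 for each). Without Tead1KO replicate 3, the array that stood apart, they were 1.16, 1.52 and 1.16, and without Tead1KO replicate 2 they were 0.37, 0.48 and 0.02. With the hybridization control signal as a covariate they were 1.36, 1.66 and 1.22, and the second passed (adjusted p = 0.00596), as did 0.595% of all probe sets in that fit. The part of array quality in the Vegfc values was not tested beyond these fits.

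**Figure D2:**
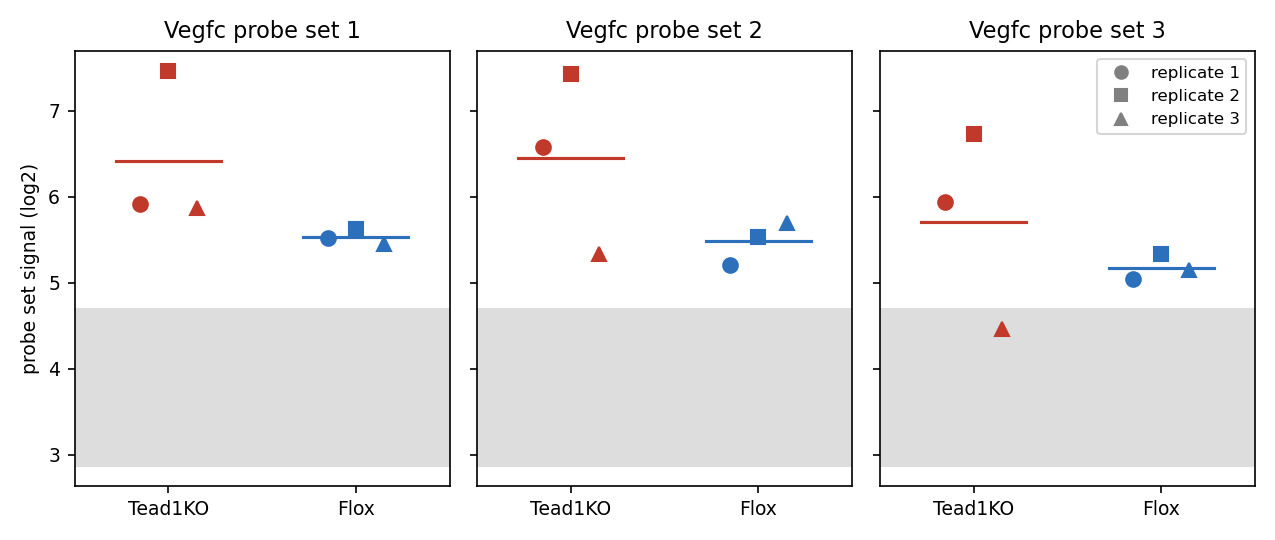
Signal of the 3 Vegfc probe sets (log2, y axis) in Tead1KO (left, red) and Flox (right, blue); symbols give the replicate, horizontal lines mark group means and grey shading spans the unspiked controls. Tead1KO replicate 2 is highest and replicate 3 lowest of the Tead1KO arrays in each panel, while the Flox arrays lie within 0.49 of each other.

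Tead1 encodes a DNA-binding protein, so the promoters of the VEGF-C ligand and receptor genes are shown, from RefSeq on GRCm38.p6, as 250 bases before to 50 after the gene start. Vegfc lies at chr8:54077282-54077581 and Flt4 at chr11:49609429-49609728, both on the plus strand. Capitals mark the GC box GGGCGG or its reverse complement CCGCCC, which was found 2 times in Vegfc and 3 times in Flt4.
Vegfc: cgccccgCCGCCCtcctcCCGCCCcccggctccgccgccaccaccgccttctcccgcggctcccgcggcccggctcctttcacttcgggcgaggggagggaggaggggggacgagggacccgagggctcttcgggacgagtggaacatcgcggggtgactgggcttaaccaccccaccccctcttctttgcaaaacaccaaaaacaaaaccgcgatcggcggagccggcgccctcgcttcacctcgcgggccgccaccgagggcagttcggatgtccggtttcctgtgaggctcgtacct
Flt4: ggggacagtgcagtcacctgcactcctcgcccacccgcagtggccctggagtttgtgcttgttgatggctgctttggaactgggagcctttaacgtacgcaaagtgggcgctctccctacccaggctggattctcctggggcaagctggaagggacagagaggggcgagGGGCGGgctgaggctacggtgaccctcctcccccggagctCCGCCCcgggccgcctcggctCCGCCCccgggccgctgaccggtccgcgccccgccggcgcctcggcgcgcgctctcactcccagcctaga
Windows were present for 6 of the 8 genes, 8 windows in all, and not for Ccbe1 and Lyve1. The TEAD core GGAATG, searched on both strands, was in 0 of the 8, where 14.7% of all 32851 promoter windows hold it. The GC box was in 8 of 8, where 35.7% of all windows hold it. ACGTG, the core bound by hypoxia-inducible factors and also searched on both strands, was in 2 of 8, a window of Vegfa and that of Pdpn, where 19.6% of all windows hold it. The printed windows hold only the GC box of these 3 cores, and a missing match says only that these letters are not in the window.

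Neither of the VEGF ligands that act on blood vessels passed. Vegfa, the main capillary growth factor of the islet, read 9.58, 10.02 and 9.82 in Tead1KO arrays and 9.66, 9.94 and 10.00 in Flox arrays at its brighter probe set (1420909_at). The groups overlapped (difference -0.06, SE 0.18, limma adjusted p = 0.947). The dimmer Vegfa probe set (1451959_a_at) read 7.51, 7.41 and 7.52 in Tead1KO arrays and 7.59, 7.65 and 7.54 in Flox arrays. It did not overlap but differed by only -0.11 (SE 0.15, adjusted p = 0.890).

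Vegfb, a ligand of the receptor gene Flt1, had 1 probe set (1451803_a_at). It read 8.49, 8.93 and 7.71 in Tead1KO arrays and 8.29, 9.34 and 9.13 in Flox arrays. The groups overlapped (difference -0.54, SE 0.37, limma adjusted p = 0.871), with Tead1KO replicate 3 the lowest array, and without it the difference was -0.21.

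The wider set of genes that process or carry the VEGF-C signal was counted next, each gene at its brightest probe set, against a background over 18193 genes. Of these genes 0.308% passed, 7.23% had an unadjusted p under 0.05 and 48.9% lay above 0, with a median difference of -0.01. Of 10 measured VEGF-C genes besides Ccbe1, 0 passed in limma, 2 had an unadjusted p under 0.05 and 8 lay above 0, and the median difference was 0.21. Adamts3, the protease partner of Ccbe1, was not above background in either group (4.19 in Tead1KO, 4.01 in Flox). Svep1, a matrix protein of lymphatic development, read 6.98, 6.22 and 7.49 in Tead1KO arrays and 6.35, 5.98 and 5.96 in Flox arrays, with overlap (difference 0.80, SE 0.31, adjusted p = 0.871).

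Vegfd, the close relative of Vegfc and another ligand of VEGFR-3, was slightly higher in every Tead1KO array at each of its 3 probe sets, without passing. The brightest (1449528_at) read 6.21, 6.10 and 6.16 in Tead1KO arrays and 5.61, 5.78 and 5.74 in Flox arrays (difference 0.45, SE 0.15, limma adjusted p = 0.732). The dimmer Vegfd probe sets differed by 0.45 (1438954_x_at) and 0.38 (1438953_at), also without overlap, as in 10.5% of all probe sets. Both lay near background in Flox, with means of 4.66 and 4.59. Tead1KO replicate 3 lay between the other Tead1KO arrays at the brightest probe set. It was the highest of them at 1438954_x_at (5.41) and the lowest at 1438953_at (4.88).

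Of 12 VEGF ligands and receptors, 0 passed and 2 reached an unadjusted p under 0.05 (7.23% of all genes did). Of the 12, 6 lay above 0, with a median difference of -0.02. Pgf, placental growth factor and a ligand of Flt1, read 8.12, 7.94 and 7.68 in Tead1KO arrays and 8.48, 8.36 and 8.58 in Flox arrays. These did not overlap, and the difference did not pass (-0.56, SE 0.18, limma adjusted p = 0.684). Kdr (0.05), Flt1 (0.03) and the coreceptor genes Nrp1 (-0.33) and Nrp2 (0.13) had differences within 2 SE of 0. Dimmer probe sets of Flt1 differed by -0.29 (1440926_at), -0.23 (1419300_at) and 0.16 (1454037_a_at). Those of Nrp1 differed by -0.15 (1448943_at), -0.22 (1448944_at) and 0.59 (1457198_at). The last overlapped and was highest in Tead1KO replicate 3 (6.22). A list of 7 genes held angiopoietins and Tie receptors, which tune vessel stability, with Angptl4 and Ptprb beside them. Of the 7 genes, 0 passed and 1 reached an unadjusted p under 0.05 (7.23% of all genes did). That gene was Angptl4, which is neither an angiopoietin nor a Tie receptor. The median difference of the 7 was -0.01. Angptl4, a lipase inhibitor induced by fasting and hypoxia, differed by 0.62 (adjusted p = 0.534), Angpt2, an antagonist of Tie2 signalling in vessels, by -0.37 (adjusted p = 0.871), and the Tie2 gene Tek by 0.01. Tie1 (-0.29), above background on only 1 Tead1KO array, and Ptprb (-0.18) did not pass either.

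No other lymphatic endothelial marker lay as far from 0 as Lyve1, and none passed. Of 21 measured, 0 passed in limma (0.308% of all genes passed) and 2 had an unadjusted p under 0.05 (7.23% of all genes did). Of the 21, 13 lay above 0 and 8 below (48.9% of all genes lay above 0), with a median difference of 0.08. Their mean signal was 5.98, between 5.95 and 6.01, in Tead1KO arrays and 6.02, between 5.99 and 6.05, in Flox arrays. Without Lyve1, Pdpn, Prox1 and Flt4, the other 17 had a median of 0.08 and ranged from -0.40 for Reln, a secreted glycoprotein of collecting lymphatics, to 0.51 for Nfatc1, a transcription factor of lymphatic valves. The Reln groups overlapped (SE 0.33), with Flox replicate 1 the highest array (6.84). A dimmer Reln probe set near background (1458020_at) differed by 0.29. No overlap was seen in 3 of the 21, where 13.1% of all genes had none. Foxc2, a valve regulator, and Tbx1 were not above background in either group. Thy1 is also on the fibroblast and mesothelial list below. In whole islets, the cells that gave the signal of this list cannot be told apart.

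Nfatc1 was the other lymphatic list gene with an unadjusted p under 0.05. It read 7.70, 7.77 and 7.31 in Tead1KO arrays and 7.24, 6.98 and 7.04 in Flox arrays at its brightest probe set (1428479_at), without overlap (difference 0.51, SE 0.19, limma adjusted p = 0.863). A further 3 Nfatc1 probe sets did not overlap either and differed by 0.40 (1417621_at), 0.47 (1425761_a_at) and 0.30 (1447085_s_at), while the dimmest differed by 0.05 (1447084_at). Which cells of the islet gave the Nfatc1 signal was not tested. Ackr4, a scavenging chemokine receptor, differed by 0.34 at its brightest probe set but by -0.24 (1437669_x_at) and -0.27 (1437668_at) at the others. Those dimmer Ackr4 probe sets were each above background on only 1 Tead1KO array. Nr2f2, which acts with Prox1 in lymphatic fate, differed by 0.41 at its brightest probe set (adjusted p = 0.871) but by -0.19 (1416159_at) and -0.08 (1436475_at) at dimmer ones near background. Mmrn1, above background on only 2 Tead1KO arrays, differed by 0.13, Stab2 by 0.08 and Sox18 by -0.29.

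**Figure D3:**
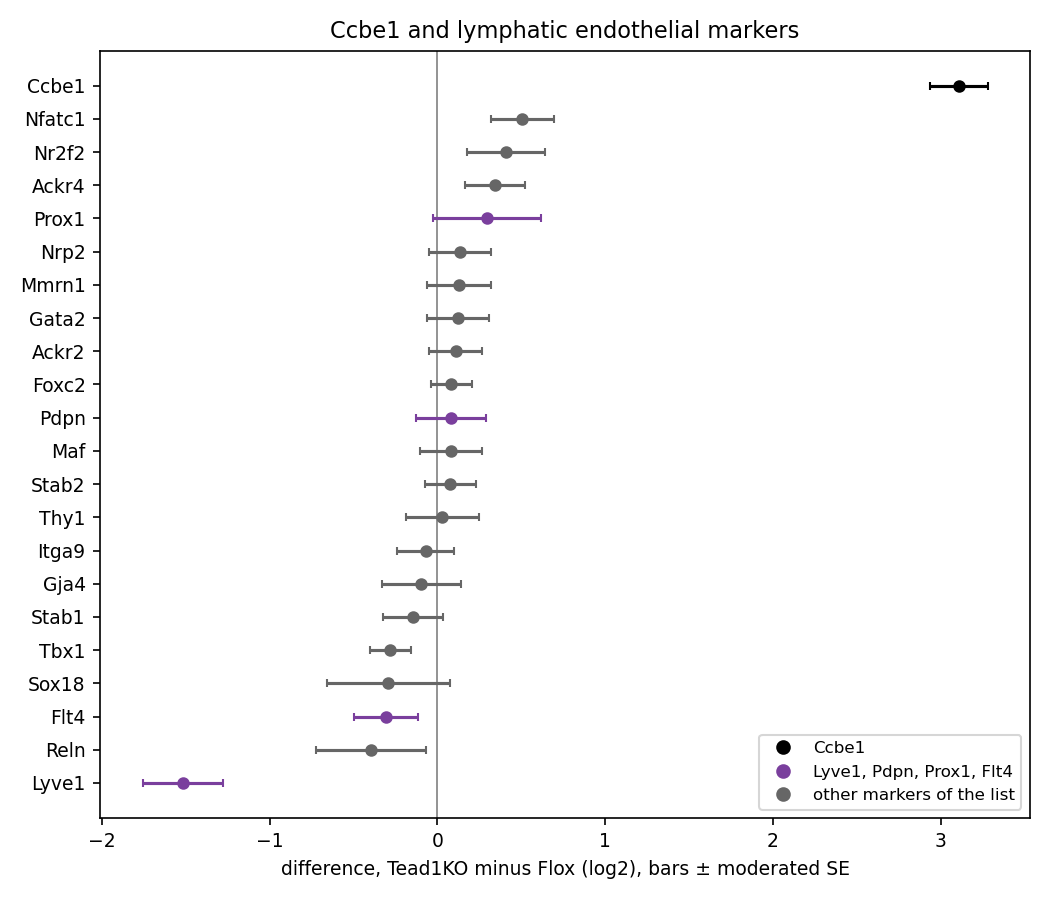
Difference in log2 signal (x axis, Tead1KO minus Flox, bars ± moderated SE) of Ccbe1 and of 21 lymphatic endothelial markers at their brightest probe sets. Ccbe1 lies at 3.11 and Lyve1 at -1.52, and the markers between them lie from -0.40 to 0.51.

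Markers of other cells that express these genes were set beside the Lyve1 and Pdpn values. Of 17 macrophage markers, 0 passed in limma, 1 had an unadjusted p under 0.05 (7.23% of all genes did), and the median difference was 0.07. Their mean signal ranged from 6.02 to 6.28 in Tead1KO arrays and from 5.89 to 6.14 in Flox arrays. Mrc1, the mannose receptor gene of resident macrophages that often carry Lyve1, differed by -0.12, Folr2 by 0.01 and Timd4 by 0.08. Folr2 was above background on only 2 Tead1KO and 2 Flox arrays, and Timd4 on only 1 of each. Adgre1 differed by 0.15 and Csf1r by -0.25 (0.27 at its dimmer 1423593_a_at), while Cd163 and Itgam were not above background in either group. C1qa, a complement subunit, read 11.52, 11.99 and 10.51 in Tead1KO arrays and 9.75, 10.55 and 10.50 in Flox arrays (difference 1.08, SE 0.38, adjusted p = 0.819), although its partners C1qb and C1qc differed by 0.08 and 0.03, and a dimmer C1qb probe set (1434366_x_at) by -0.34.

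Blood endothelial markers spanned a narrow range of differences, from -0.31 to 0.17. Of 22, 0 passed and 0 reached an unadjusted p under 0.05. Their median difference was -0.04. Their mean signal ranged from 7.02 to 7.30 in Tead1KO arrays and from 7.22 to 7.28 in Flox arrays. Plvap, of fenestrated capillaries, differed by 0.04, Cdh5, the endothelial cadherin, by 0.14 and Pecam1 by 0.07. Icam2 (-0.30), Vwf (-0.27) and Eng (0.17) had the smallest unadjusted p-values of the list.

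Of 14 fibroblast and mesothelial markers, 0 passed, 4 had an unadjusted p under 0.05 (7.23% of all genes did), and the median difference was 0.05. At their brightest probe sets, the matrix genes Dcn (1.11, SE 0.27, limma adjusted p = 0.344), Dpt (0.60) and Col1a2 (0.62) were higher in every Tead1KO array than in any Flox array. A dimmer Col1a2 probe set (1423110_at) overlapped and differed by 0.20. A dimmer Dcn probe set (1441506_at), not above background in either group, differed by -0.09. No overlap was seen in 4 of the 14 genes, where 13.1% of all genes had none. Msln, the mesothelial marker mesothelin, was lower in every Tead1KO array (-1.10, SE 0.39, adjusted p = 0.820). The mean signal of the list ranged from 6.42 to 6.60 in Tead1KO arrays and from 6.31 to 6.47 in Flox arrays. Of 9 pericyte markers, 0 passed and 3 reached an unadjusted p under 0.05: Acta2 at -0.99 (adjusted p = 0.507), Rgs5 at -0.62 and Kcnj8 at 0.62. The pericyte list's mean signal ranged from 7.03 to 7.16 in Tead1KO arrays and from 7.11 to 7.19 in Flox arrays. The part of these cells in the Lyve1, Vegfc and Ccbe1 values was not tested.

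Acinar and ductal markers, a measure of exocrine carry-over, differed widely between arrays within each group. Their mean signal ranged from 9.97 to 11.22 in Tead1KO arrays and from 9.86 to 11.28 in Flox arrays, and 0 of 10 passed or had an unadjusted p under 0.05. Of 12 endocrine genes, 0 passed and 3 had an unadjusted p under 0.05 (7.23% of all genes did). These were Pcsk1, a prohormone convertase (-0.63, limma adjusted p = 0.141), Chga (-0.26) and Scg2 (0.29). The mean signal of the endocrine list ranged from 13.21 to 13.47 in Tead1KO arrays and from 13.44 to 13.50 in Flox arrays.

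**Figure D4:**
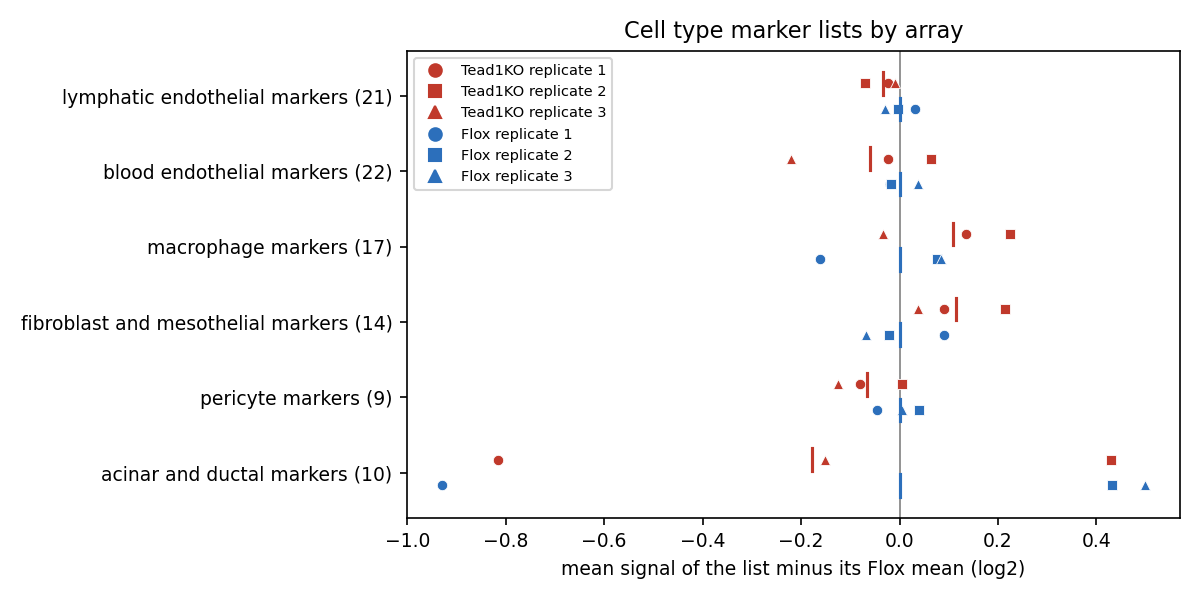
Mean signal of 6 cell type marker lists minus the Flox mean of the list (log2, x axis), with the number of genes in brackets; symbols are arrays, red Tead1KO above blue Flox, and ticks are group means. The lymphatic list lies within 0.07 of 0 on every array, and the acinar and ductal list spreads from -0.93 to 0.50.

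Genes of the hypoxia response, which induces Vegfa in many tissues, were counted beside the Vegfa values. Of 18, 0 passed in limma and 2 had an unadjusted p under 0.05 (7.23% of all genes did). Of the 18, 12 lay above 0 (48.9% of all genes did), with a median difference of 0.14. Pdk1, a kinase that restrains pyruvate entry into mitochondria, differed by 0.55 at its brightest probe set (SE 0.16, adjusted p = 0.569). Dimmer Pdk1 probe sets overlapped and differed by 0.12 (1435836_at) and, at or near background, by 0.30 (1423747_a_at) and -0.12 (1434974_at). Arnt, the partner subunit of the hypoxia-inducible factors, differed by 0.43 at its brightest probe set. A dimmer Arnt probe set (1421721_a_at) read lower in every Tead1KO array than in any Flox array (difference -0.20, adjusted p = 0.871). Adm, the vasodilator adrenomedullin, differed by 0.53 but was above background on 1 Tead1KO array and 0 Flox arrays. Slc2a1, a glucose transporter gene, differed by -0.33. Hif1a differed by 0.23, and by -0.10 at another probe set (1427418_a_at).

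The genes whose signal over the 6 arrays was most like that of the brightest Ccbe1 probe set were Crmp1, Hsd11b1, C4bp, Me3, Dpep1 and Sel1l3, with Pearson correlations of 0.995, 0.994, 0.993, 0.991, 0.991 and 0.990. Their differences were 2.11, 2.13, 5.40, 1.18, 2.59 and 0.71 in the same order. C4bp, a complement regulator gene, was not above background in Flox and is better given as at least 19.5-fold higher in Tead1KO. These genes were picked for a profile like that of Ccbe1, so no test is given for their differences. None of the VEGF or lymphatic genes was among them, but only genes with a mean signal above 5.24 could be. Pdpn, with a mean of 4.71, could not, so its absence says nothing. For the brighter Lyve1 probe set the genes most like it were Nme4 (0.996), Uox (0.995), Stard8 (0.994) and Kcnu1 (0.994), with differences of -0.24, -0.50, -0.57 and -0.73. With 6 arrays in 2 groups these correlations mostly restate the group difference, and they are a likeness with no test.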

How the data were processed

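Expression was measured in 6 islet RNA samples, 1 array each. Per the submitters' processing notes, the authors used Affymetrix Expression Console, and what they deposited is 1 log2 signal for each probe set and array. Its version, its normalization and the genome build of the array annotation were not given in the sources used here. No dim probe set was left out and the values were used as deposited. Of 45101 probe sets, 64 controls were left out, and 34945 of the rest carried a single symbol. The groups were compared with limma 3.58.1 in R 4.3.3 (lmFit, eBayes with trend=TRUE, no covariate), adjusted by Benjamini-Hochberg over 45037 probe sets. SE is the moderated standard error, and the number of arrays limits the precision.

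The 8 genes and the 11 gene lists were chosen with earlier results of these data known. List genes were read at the probe set with the highest mean signal. Named are all probe sets of the 8 genes, up to 4 genes per list with the smallest p, and the genes most like Ccbe1 and Lyve1 among probe sets above the median signal (5.24). Other list genes are named because they define a cell type or pathway, and were chosen after their values were seen. Members of lists with no single-symbol probe set (10 entries, among them Adamts2, Adamts14 and Ccl21a) were not analysed here. Alternatives covered normalization, centring, dim probe sets, the variance prior, the unit of the test, the replicate block, the hybridization controls as a covariate and each array left out. The fit was tested on simulated normal values with no array that stood apart, so that test does not cover array quality.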

Additional observations from a re-analysis of the deposited data

How the results depend on the processing

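The sign of the difference held in all 15 alternatives for the brightest probe sets of Ccbe1, Lyve1, Vegfb, Vegfc and Flt4. It turned in some for Vegfa, Pdpn and Prox1, none of which was called. Some of the 15 could not turn a sign, since they leave the difference of a probe set as it is. These were 1 probe set per gene, no variance trend, a robust prior, the replicate block and dim probe sets left out. Vegfb (-0.54) was -0.02 with the hybridization controls and ranged from -0.86, without Flox replicate 1, to -0.21, without Tead1KO replicate 3. Flt4 (-0.31) was -0.06 with its probe sets averaged and -0.47 without Tead1KO replicate 2. The count of changed probe sets, 81, was 268 with the hybridization controls as a covariate, 42 with median centring, 143 with quantile normalization, 143 at an adjusted p under 0.1, 20 at an adjusted p under 0.01, and 4 to 239 without single arrays (9, 11 and 11 without Flox replicates 1 to 3; 4, 239 and 186 without Tead1KO replicates 1 to 3). Ccbe1 differed by 1.003 with its probe sets averaged, since 3 of them lie near background. Lyve1 passed with 1 probe set per gene (-1.52, adjusted p = 0.0468), with the hybridization controls (-1.35, adjusted p = 0.0335) and with the replicate block (-1.52, adjusted p = 0.0190). It did not pass with its probe sets averaged (-0.92, adjusted p = 0.115), median centring (-1.58, adjusted p = 0.103), quantile normalization (adjusted p = 0.0513), no variance trend (0.0736), a robust prior (0.0821) or dim probe sets left out (0.0625), and ranged from -1.70 to -1.33 without single arrays. The replicate numbers are shared names only: the same-number correlations of deviations were 0.06, 0.35 and -0.20, so pairing is not shown, and the block moved the count of changed probe sets to 96.

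Member counts of the lists became 1 for the lymphatic list with 1 probe set per gene, the hybridization controls or the replicate block (0 to 1 without single arrays), and 1 for the macrophage, the fibroblast and mesothelial, and the endocrine lists with the hybridization controls. Median differences with the hybridization controls were 0.26 (VEGF-C processing), -0.00994 (lymphatic), 0.0782 (blood endothelial), 0.12 (fibroblast and mesothelial) and 0.0152 (hypoxia). With median centring they were 0.15 (VEGF-C processing), -0.0732 (angiopoietins), -0.00976 (fibroblast and mesothelial) and 0.0780 (hypoxia). With quantile normalization they were 0.35 (VEGF-C processing) and 0.12 (VEGF ligands and receptors), and without dim probe sets 0.30 (VEGF-C processing). With probe sets averaged they were 0.16 (fibroblast and mesothelial), 0.0720 (pericyte) and 0.0719 (hypoxia). Without single arrays they ranged from 0.22 to 0.33 (VEGF-C processing), 0.00032 to 0.11 (lymphatic), -0.0627 to 0.10 (macrophage) and 0.0258 to 0.21 (hypoxia). The causes were not tested. Signals near background limit what can be seen for Pdpn, the dimmer Lyve1 and Prox1 probe sets and 3 of the 4 Ccbe1 probe sets. The same holds for the list genes Folr2, Timd4, Tie1 and Mmrn1.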
